A study of Mus musculus with 6 samples.

Results

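Conventional myeloid-derived suppressor cells, MDSC (conv.), were compared with dendritic cells (DCs) over the genes measured on 4 of the 6 arrays of the series, 2 arrays for each of these groups. The members of the comparison were chosen by their titles alone, and all 56605 non-control probes of the arrays entered it. Per the labels and the study's methods, both groups were grown from whole bone marrow cells of female C57BL/6J mice, a wild-type laboratory strain, aged 6 to 8 weeks, and both received granulocyte-macrophage colony-stimulating factor (GM-CSF). MDSC (conv.) were cultured with 40 ng/mL for 4 days in tissue culture-treated dishes, and DCs with 20 ng/mL for 8 days in non-treated dishes. The remaining 2 arrays, 6G- BM-MDSC, came from bone marrow without Ly-6G+ cells, cultured like MDSC (conv.). They were used here for the estimate of the spread, and also counted in the filter on dim probes and the choice of each gene's brightest probe. Neither culture is described as sorted before RNA extraction, so each array averages a mixture of cells.

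GM-CSF is a growth factor under which bone marrow progenitors give rise to granulocytes, monocytes, macrophages and dendritic cells. Granulocytes store proteases and antimicrobial proteins in granules that are filled in order as the cell matures, while dendritic cells load peptides on MHC class II molecules and show them to T cells. MDSCs are immature myeloid cells, defined by their capacity to restrain T cells, and are divided by their surface markers into granulocyte-like and monocyte-like forms.

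The dose, the days in culture, the dish and the row of the slide on which the arrays lay (row 1 for both MDSC groups, row 2 for DCs) all differed in the same way between both groups, so that their parts in any difference cannot be told apart. In RNA from mixed cells, fewer cells of a type and less RNA per cell cannot be told apart either. Replicates carry numbers in the labels, but whether these were separate cultures or animals is not said, so that a p-value reflects only how far these samples spread, which may be technical. Between 60.8% and 61.6% of probes were well above background on the MDSC (conv.) arrays and between 57.4% and 57.6% on the DC arrays, no spot was saturated, and the correlation across genes was 0.996 between the MDSC (conv.) arrays, 0.995 between the DC arrays and 0.973 to 0.976 between the groups.

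Values are given as log2 signal relative to the 75th percentile of the array, called signal here, and differences as MDSC (conv.) minus DCs on the log2 scale, from limma with an adjusted p under 0.05 as the threshold. Signals of different genes come from different probes and are not set against each other. Of 21860 genes tested, 2922 (13.4%) were higher and 3457 (15.8%) lower in MDSC (conv.), together 29.2%. The counts of every gene list below are to be read against these shares. With 1 of the 4 arrays left out, the counts were 1371 to 1859 higher and 1420 to 1976 lower, the lowest of both without MDSC (conv.) array 2. The median difference over all genes was -0.03. Differences of at least 2-fold were found upward in 1163 genes (5.32%) and downward in 825 (3.77%), but among genes with probes above background on all 4 arrays the counts were 726 and 734. At 4-fold the counts were 495 (2.26%) and 160 (0.732%). The groups did not overlap in 71.2% of genes, a background against which non-overlap of a single gene is to be read. Of the called genes, 6378 did not overlap and 0 did, so that non-overlap of a called gene adds nothing to its call. For 8177 genes (37.4%) the 95% interval of the difference lay within 0.5 of 0 on either side.

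**Figure D1:**
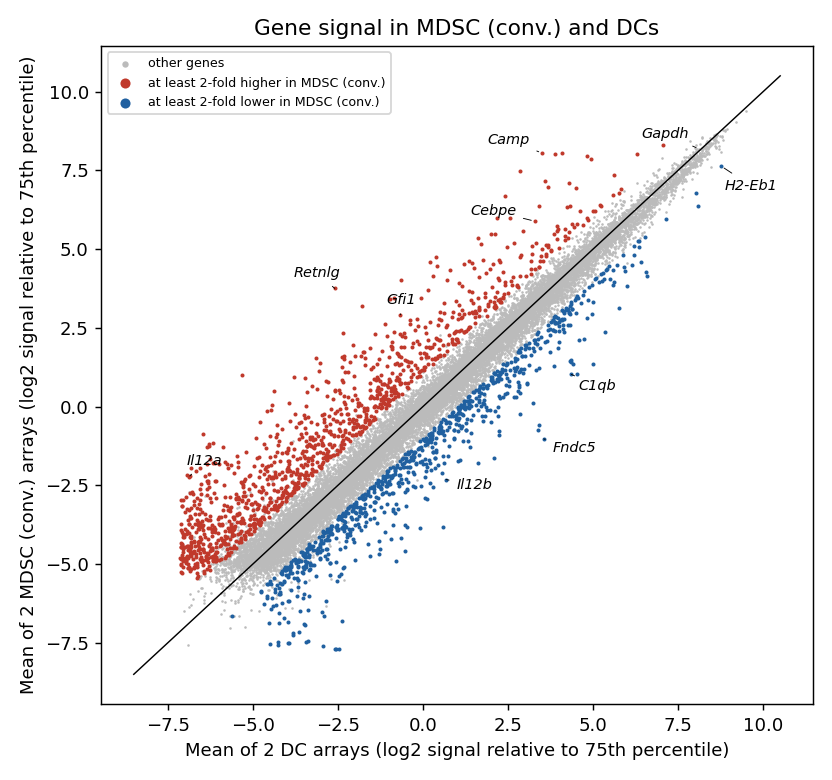
Mean signal of the 2 DC arrays (horizontal) against that of the 2 MDSC (conv.) arrays (vertical), both as log2 relative to the 75th percentile of the array, with 1 point per gene, the line of equal signal, and genes called at a difference of at least 2-fold in colour. The 1163 red points lie above the line and the 825 blue points below it, and Gapdh lies on it.

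The labels were checked against defining genes. Itgam, which encodes CD11b of myeloid cells, was well above background on all 4 arrays (MDSC (conv.) signals of 4.71 and 4.86 and DC signals of 4.57 and 4.68) and its difference of 0.16 (SE 0.11, adjusted p = 0.312) did not pass. Itgax, which encodes CD11c and is used as a dendritic cell marker, was also present in both groups, with MDSC (conv.) signals of 5.39 and 5.37 and DC signals of 6.28 and 6.2. It was lower in MDSC (conv.) by 0.86 on the log2 scale (SE 0.11, adjusted p = 0.00609), and the arrays of the groups did not overlap. Xcr1, a receptor of cross-presenting dendritic cells, was not well above background on any of these arrays. Gapdh, an enzyme of glycolysis often used as a control gene, had a difference of 0.05 (SE 0.09, adjusted p = 0.698), and leaving out the first DC array turned it to -0.04.

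Most granule genes of neutrophils were higher in MDSC (conv.). Of 6 tested genes for primary granule proteins, 5 were higher and none lower, with a median difference of 4.05 over the 6. Elane, neutrophil elastase, had MDSC (conv.) signals of 6.0 and 6.0 and DC signals of 2.08 and 2.3. Both MDSC (conv.) arrays were far above both DC arrays, and the difference was 3.81 (SE 0.10, adjusted p = 0.000204). Ctsg, cathepsin G, differed by 4.29 and Prtn3, proteinase 3, by 4.29. Prss57, a further serine protease of these granules, differed by 3.44. Ctsc, the cathepsin that activates these proteases and is made by many other cells, did not pass, at 0.53 (adjusted p = 0.172). Bpi was not well above background on any of these arrays and was not tested.

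Of 17 tested genes for secondary and tertiary granule proteins, 15 were higher and 1 was lower, with a median of 3.48, and between 12 and 13 stayed higher when 1 of the 4 arrays was left out. Camp, the precursor of the antimicrobial peptide cathelicidin, had MDSC (conv.) signals of 8.0 and 8.09 and DC signals of 3.6 and 3.4, a difference of 4.55 (SE 0.14, adjusted p = 0.000208). Ltf, the iron-binding protein lactoferrin, had MDSC (conv.) signals of 8.06 and 8.01 and DC signals of 4.05 and 3.71, a difference of 4.15 (SE 0.14, adjusted p = 0.000255). For both genes the arrays of each group lay close together and the groups stood far apart. Lcn2, which binds bacterial siderophores, differed by 3.98, Ngp, neutrophilic granule protein, by 3.57 and Hp, haptoglobin, by 3.31. Olfm4, a glycoprotein of a subset of neutrophils, was not well above background on either DC array, and in MDSC (conv.) it was at least 7.96-fold higher. Chil3 and Mmp8 had smaller differences, of 1.25 and 1.13. Mmp25, a membrane-bound metalloprotease of neutrophils, ran the other way and was lower in MDSC (conv.), with MDSC (conv.) signals of 0.72 and 0.85 and DC signals of 1.55 and 1.51. The call of Chil3 was lost when any 1 of the 4 arrays was left out, with an adjusted p up to 0.103. The call of Mmp8 was lost without MDSC (conv.) array 2, with an adjusted p up to 0.0566.

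Genes for abundant cytosolic and secreted neutrophil proteins moved in both directions. Of 11 tested, 5 were higher and 2 lower, with a median of 0.36. S100a8, a subunit of calprotectin, had MDSC (conv.) signals of 7.93 and 7.83 and DC signals of 7.06 and 6.97, a difference of 0.87 (SE 0.12, adjusted p = 0.00833). Its partner S100a9 had MDSC (conv.) signals of 8.62 and 8.5 and DC signals of 8.23 and 8.19 and a difference of 0.36 that did not pass (adjusted p = 0.168). Retnlg, a resistin-like protein of neutrophils, had the largest difference of the list, at 6.34. Lrg1, a secreted glycoprotein, differed by 3.53 and Ifitm6, a member of the interferon-induced transmembrane family, by 3.42. Stfa1 and Stfa3, which encode stefin A protease inhibitors and belong to a family of near-identical genes whose probes may not tell them apart, were lower in MDSC (conv.), by 0.78 and 1.19 on the log2 scale.

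Of 22 neutrophil surface and chemoattractant receptors tested, 17 were higher and none lower, with a median of 1.62, and between 13 and 16 were higher when 1 array was left out. Cxcr2, the receptor for the CXC chemokines that draw neutrophils, had MDSC (conv.) signals of 2.0 and 2.12 and DC signals of -0.85 and -0.99, a difference of 2.98 (SE 0.09, adjusted p = 0.000208). The formyl peptide receptors Fpr1 and Fpr2 differed by 2.59 and 2.45, the complement receptor C5ar1 by 1.56, and Fcgr4, a receptor for IgG, by 2.81. Ly6g, the surface marker of granulocytes, differed by 4.02. Ceacam10, an adhesion molecule of the carcinoembryonic antigen family, differed by 4.64 and Trem3 by 3.21. Csf3r, the receptor for granulocyte colony-stimulating factor, had MDSC (conv.) signals of 6.34 and 6.31 and DC signals of 6.31 and 6.44, and its difference of -0.06 (95% interval -0.27 to 0.16) did not pass. Mrgpra2a, Mrgpra2b and Mrgpra6, Mas-related G protein-coupled receptors outside the lists, were among the 20 genes with the largest differences, at 4.45, 4.49 and 4.77. Mrgpra6 was not well above background in DCs, and its bound was at least 6.24-fold.

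Transcription factors of myeloid fate moved in both directions, with 9 of 29 tested higher, 12 lower and a median of -0.20 (3 to 6 higher and 7 to 10 lower with 1 array left out, the fewest calls without DC array 2 or MDSC (conv.) array 2). That median was between -0.30 and 0.07 with 1 array left out. Gfi1, a repressor needed for granulocyte development, had MDSC (conv.) signals of 3.0 and 2.83 and DC signals of -0.75 and -0.58, a difference of 3.58 (SE 0.11, adjusted p = 0.000208). Cebpe, which drives the late granule genes, had MDSC (conv.) signals of 5.98 and 5.8 and DC signals of 3.44 and 3.14, a difference of 2.6 (SE 0.13, adjusted p = 0.000549). Cebpb and Cebpd, related factors, were higher by 0.70 and 0.74, while Cebpa was lower by 0.29 on the log2 scale. Spi1, which encodes PU.1 and is used by granulocytes and macrophages alike, did not pass, at 0.34 (adjusted p = 0.0612). On the other side, Irf8, needed for monocytes and dendritic cells, had MDSC (conv.) signals of 3.98 and 4.09 and DC signals of 5.3 and 5.66, a difference of -1.45 (SE 0.14, adjusted p = 0.00268). Zbtb46, a factor of classical dendritic cells, had MDSC (conv.) signals of -0.82 and -0.67 and DC signals of 0.66 and 0.76, a difference of -1.45, although its 4 probes ranged from -1.45 to -0.57. Irf4 was lower by 1.08 and Relb by 0.80 on the log2 scale. For each of Gfi1, Cebpe, Irf8, Irf4 and Zbtb46, the arrays of the groups did not overlap and the call was kept whichever of the 4 arrays was left out. The calls of Cebpb and Cebpa were lost when any 1 of the 4 arrays was left out, with an adjusted p up to 0.144. The call of Cebpd was lost without MDSC (conv.) array 2, DC array 1 or DC array 2, with an adjusted p up to 0.0752.

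**Figure D2:**
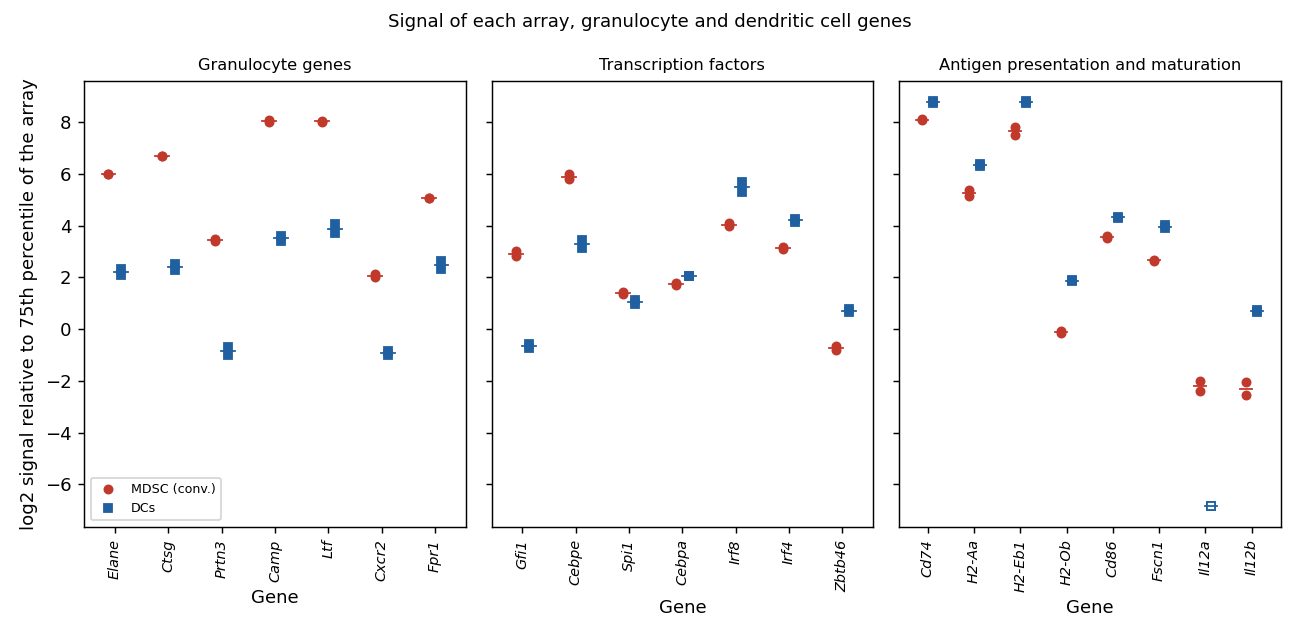
Signal of each array (log2 relative to the 75th percentile of the array) for genes of granulocytes, transcription factors, and genes of antigen presentation and maturation, with circles for the 2 MDSC (conv.) arrays, squares for the 2 DC arrays, short lines for group means, and open symbols where no array of the group was well above background. All 7 granulocyte genes lie higher in MDSC (conv.), while Irf8, Irf4 and Zbtb46 lie higher in DCs, as do all genes of the last panel except Il12a.

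The promoters of the granule and MHC class II genes were searched for short motifs, since most of their called members moved one way. RefSeq promoters (GRCm38.p6, 250 bases before to 50 after the start) were matched by symbol for 15 of the 17 tested secondary granule genes, 5 of the 6 primary granule genes and 12 of the 16 MHC class II genes. TTGCNNAA, a site of the C/EBP family searched on both strands, was found in 8 of the 15 (53.3%) and in 0 of the 5, against 12.2% of all 27025 genes with a promoter. CTGATTGG, the Y box of MHC class II promoters, bound by NF-Y, was found in 3 of the 12 (25%), against 4.7% of all genes, but also in 6 of 16 promoters of cholesterol genes (37.5%) and 6 of 28 of DNA replication genes (21.4%). GAGGAA, a core of sites for ETS factors such as PU.1, was found in 5 of the 5 primary and 8 of the 15 secondary granule promoters and in 12 of 15 of macrophage markers (80%), against 31.3% of all. A match is a description of the letters and not evidence of binding. The 8 secondary granule genes with TTGCNNAA included Adam8, which did not pass at -0.16, and Anxa1, which was called higher at 0.37. The call of Anxa1 was lost when any 1 of the 4 arrays was left out. Camp, Chil1, Cd177 and Olfm4, each higher in MDSC (conv.), had no match. The 150 bases before the start are shown for 3 of the secondary granule genes with a match to TTGCNNAA, each higher in MDSC (conv.). The match, on either strand, is in capitals, 5′ to 3′ on the strand of the gene.
Ltf, chr9:111019142-111019291, plus strand: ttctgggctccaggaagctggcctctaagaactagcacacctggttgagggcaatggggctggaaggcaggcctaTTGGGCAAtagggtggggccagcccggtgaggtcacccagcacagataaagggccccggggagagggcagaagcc
Fcnb, chr2:28084879-28085028, minus strand: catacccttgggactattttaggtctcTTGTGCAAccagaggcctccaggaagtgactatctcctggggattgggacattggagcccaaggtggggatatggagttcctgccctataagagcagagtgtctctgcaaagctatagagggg
Ngp, chr9:110419658-110419807, plus strand: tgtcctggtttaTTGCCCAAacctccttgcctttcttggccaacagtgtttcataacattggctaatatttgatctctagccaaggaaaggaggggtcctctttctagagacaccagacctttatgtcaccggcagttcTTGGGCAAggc
The 3 MHC class II genes with a Y box, each lower in MDSC (conv.), are shown in the same way, with CTGATTGG in capitals.
H2-Aa, chr17:34287824-34287973, minus strand: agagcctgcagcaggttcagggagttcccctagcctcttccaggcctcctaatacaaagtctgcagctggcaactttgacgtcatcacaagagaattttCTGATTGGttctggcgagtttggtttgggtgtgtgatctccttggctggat
H2-Eb1, chr17:34305717-34305866, plus strand: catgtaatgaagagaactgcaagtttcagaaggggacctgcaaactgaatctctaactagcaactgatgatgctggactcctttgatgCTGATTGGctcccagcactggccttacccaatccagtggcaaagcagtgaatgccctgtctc
H2-Oa, chr17:34092229-34092378, plus strand: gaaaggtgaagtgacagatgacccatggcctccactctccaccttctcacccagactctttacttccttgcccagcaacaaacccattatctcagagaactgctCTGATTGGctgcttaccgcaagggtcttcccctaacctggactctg
Counted from the start, the match nearest to it began at base -75 in Ltf, -11 in Ngp and -123 in Fcnb. The Y box began at base -51 in H2-Aa, -62 in H2-Eb1 and -46 in H2-Oa.

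Genes of antigen presentation by MHC class II were lower in MDSC (conv.) where they were called. Of 16 MHC class II genes tested, 11 were lower and none higher, with a median of -0.87, and 9 or 10 were lower when 1 array was left out. H2-Aa, the alpha chain of the class II molecule I-A, had MDSC (conv.) signals of 5.38 and 5.12 and DC signals of 6.32 and 6.38, a difference of -1.1 (SE 0.11, adjusted p = 0.00331). H2-Eb1, the beta chain of I-E, had MDSC (conv.) signals of 7.48 and 7.79 and DC signals of 8.73 and 8.8, a difference of -1.13. Both DC arrays lay above both MDSC (conv.) arrays for each. H2-Oa and H2-Ob, which form the modulator H2-O of peptide loading, had larger differences, of -1.61 and -2.0, and H2-DMb2, part of the loading factor H2-DM, differed by -1.74. Cd74, the invariant chain, differed by -0.68 and H2-Ab1 by -0.38. Rfx5, Rfxank and Rfxap, the subunits of the RFX complex that binds class II promoters, did not pass, with differences of 0.02, -0.06 and -0.13. The call of H2-Ab1 was lost when any 1 of the 4 arrays was left out, with an adjusted p up to 0.138.

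Costimulation and maturation genes ran in the same direction, with 18 of 25 tested lower, 1 higher and a median of -0.75, although only 8 to 12 were lower when 1 array was left out. Fscn1, the actin-bundling protein fascin of mature dendritic cells, had MDSC (conv.) signals of 2.68 and 2.65 and DC signals of 3.89 and 4.02, a difference of -1.29 (SE 0.09, adjusted p = 0.00118). Cd86, a ligand of CD28 on T cells, had MDSC (conv.) signals of 3.59 and 3.53 and DC signals of 4.27 and 4.35, a difference of -0.75. Cd83 was lower by 1.07, Icosl by 0.90 and Tnfsf9 by 0.85 on the log2 scale. Ccr7, the receptor that guides dendritic cells to lymph nodes, was lower by 0.73. Cd274 and Pdcd1lg2, the ligands of PD-1, did not pass, at -0.35 and -0.45. The call of Cd83 was lost without MDSC (conv.) array 1, MDSC (conv.) array 2 or DC array 2, with an adjusted p up to 0.0589. The call of Ccr7 was lost without MDSC (conv.) array 2 or DC array 2, with an adjusted p up to 0.0849.

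The subunits of interleukin 12 moved in opposite directions. Il12a, the p35 subunit, had MDSC (conv.) signals of -2.38 and -2.03 and DC signals of -6.86 and -6.85, and no DC array was well above background. In MDSC (conv.) it was at least 6.07-fold higher (adjusted p = 0.000204). Il12b, the p40 subunit that is shared with interleukin 23, had MDSC (conv.) signals of -2.57 and -2.06 and DC signals of 0.64 and 0.72, a difference of -2.99 (SE 0.20, adjusted p = 0.00115). Both groups were separated for each subunit. The other subunit of interleukin 23, Il23a, was not well above background on any of these arrays.

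Dendritic cell identity genes were lower in 12 of 20 tested and higher in 1, with a median of -0.58 (1 higher and 7 to 9 lower with 1 array left out, the fewest calls without MDSC (conv.) array 2). Besides Itgax, Cd209a, a lectin of monocyte-derived dendritic cells, had MDSC (conv.) signals of 2.83 and 2.83 and DC signals of 3.8 and 3.9, a difference of -1.02. Kmo and Dpp4, surface or metabolic markers of dendritic cell subsets, were lower by 0.97 and 0.85 on the log2 scale. The exception was Clec9a, a receptor for dead cells on cross-presenting dendritic cells, which was higher in MDSC (conv.), with MDSC (conv.) signals of -1.71 and -1.51 and DC signals of -2.76 and -2.89, a difference of 1.21 (SE 0.12, adjusted p = 0.003). Flt3, the receptor for a dendritic cell growth factor, did not pass, at 0.20. Among plasmacytoid dendritic cell genes, the lower ones included Klk1 (-2.99) and Bst2 (-1.33). Of 11 plasmacytoid dendritic cell genes 5 were lower and 2 higher (2 higher and 2 to 4 lower with 1 array left out, the fewest calls without MDSC (conv.) array 2), the latter being Ccr9 (2.02) and Ly6d (3.08), which lymphoid progenitors also express. Of 24 integrins and adhesion molecules, 11 were lower and 4 higher, with a median of -0.34 (2 higher and 7 to 9 lower with 1 array left out, the fewest calls without DC array 2 or MDSC (conv.) array 1). Epcam, an adhesion molecule of Langerhans cells and epithelia, was lower, with MDSC (conv.) signals of -2.17 and -2.28 and DC signals of 0.13 and 0.01, and Itgb7, an integrin chain, differed by -2.01. The call of Dpp4 was lost without MDSC (conv.) array 2, DC array 1 or DC array 2, with an adjusted p up to 0.0721.

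Macrophage markers were lower in 12 of 23 tested and higher in 3, with a median of -0.62 (1 to 3 higher and 8 to 10 lower with 1 array left out, the fewest calls without MDSC (conv.) array 2). C1qb, a chain of complement C1q, had MDSC (conv.) signals of 1.03 and 1.02 and DC signals of 4.29 and 4.43, a difference of -3.34 (SE 0.10, adjusted p = 0.000208). Apoe, a lipid carrier, differed by -2.12 and Mertk, a receptor for apoptotic cells, by -1.33. Adgre1, which encodes F4/80, differed by -0.62. Slc40a1, the iron exporter ferroportin, was higher in MDSC (conv.), with MDSC (conv.) signals of 2.43 and 2.68 and DC signals of 0.01 and -0.31, and Hmox1, which frees iron from heme, was higher by 0.56. Of 11 genes of osteoclasts and fused macrophages, 5 were lower and 2 higher. Atp6v0d2, a proton pump subunit, differed by -1.37, Acp5, tartrate-resistant acid phosphatase, by -1.0 and Dcstamp, a fusion protein, by -0.91. Itgb3, counted in this list and among megakaryocyte genes, was higher by 3.13. The call of Adgre1 was lost without MDSC (conv.) array 1, DC array 1 or DC array 2, with an adjusted p up to 0.0916. The call of Hmox1 was lost without MDSC (conv.) array 1, MDSC (conv.) array 2 or DC array 1, with an adjusted p up to 0.168.

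Monocyte markers split. Of 20 tested, 7 were higher and 3 lower, with a median of 0.41 (6 to 10 higher and 1 to 3 lower with 1 array left out, the fewest calls without MDSC (conv.) array 1 or MDSC (conv.) array 2). Plac8 had MDSC (conv.) signals of 5.43 and 5.54 and DC signals of 2.11 and 2.14, a difference of 3.36 (SE 0.10, adjusted p = 0.000204). Vcan, the proteoglycan versican of classical monocytes, had MDSC (conv.) signals of 2.34 and 2.31 and DC signals of -0.56 and -0.56, a difference of 2.88, with its 3 probes between 1.46 and 2.88. Ly6c1 differed by 2.91. Ccr2, the receptor that recruits monocytes, did not pass, at 0.08. Cd300e, an activating receptor of non-classical monocytes, was among the 20 genes that fell furthest, with MDSC (conv.) signals of -0.38 and -0.76 and DC signals of 3.34 and 3.47, a difference of -3.98 (SE 0.18, adjusted p = 0.000454). Ace, also a gene of non-classical monocytes, was lower by 1.59 (adjusted p = 0.0469), and Csf1r, the receptor for macrophage colony-stimulating factor, by 0.48 on the log2 scale. The call of Ace was lost without MDSC (conv.) array 1, MDSC (conv.) array 2 or DC array 1, with an adjusted p up to 0.189. The call of Csf1r was lost without MDSC (conv.) array 1, MDSC (conv.) array 2 or DC array 2, with an adjusted p up to 0.0626.

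Stem and progenitor cell genes were higher in 8 of 18 tested and lower in 2 (4 to 7 higher and 2 to 3 lower with 1 array left out, the fewest calls without MDSC (conv.) array 2). Ms4a3, a gene of granulocyte and monocyte progenitors, differed by 3.73. Myb, a factor of dividing progenitors, had MDSC (conv.) signals of 2.51 and 2.54 and DC signals of 0.88 and 0.48, a difference of 1.85 (SE 0.15, adjusted p = 0.00179). Erg, a factor of stem cells and endothelium, was not well above background in DCs and was at least 9.39-fold higher. Cd34, a surface marker of early progenitors that mast cells and some dendritic cells also carry, ran the other way, with MDSC (conv.) signals of 1.93 and 1.77 and DC signals of 4.25 and 3.67, a difference of -2.11 (SE 0.24, adjusted p = 0.00464). Prom1 is left without a fold, since its 3 probes ranged from 0.27 to 3.34.

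**Figure D3:**
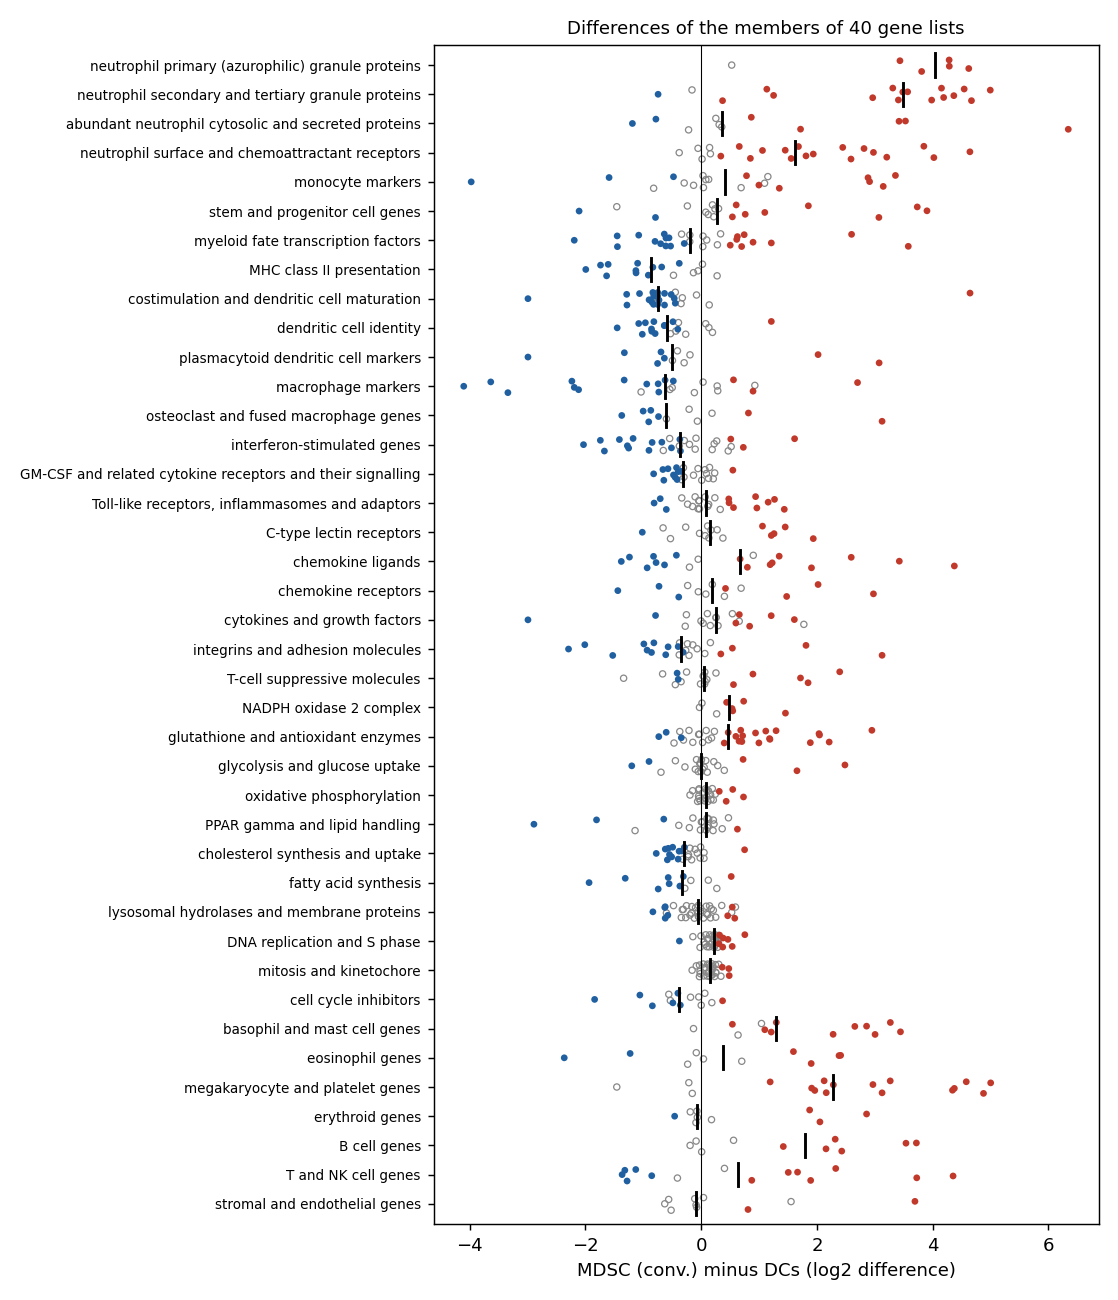
Difference between MDSC (conv.) and DCs (log2, horizontal) of each tested member of 40 gene lists (rows), with filled red and blue points for members called higher and lower, open points for members that did not pass, and a black bar at the median of the list. Granule, megakaryocyte and B cell genes lie mostly right of 0, and MHC class II, maturation and macrophage genes mostly left of 0.

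By brightest probe, no called receptor or signalling gene of GM-CSF and related cytokines differed by 2-fold. Of 23 tested, 10 were lower and 1 higher, with a median of -0.31, and 2 to 5 were lower when 1 array was left out. Csf2ra, the GM-CSF binding chain of the receptor, had MDSC (conv.) signals of 6.72 and 6.76 and DC signals of 6.62 and 6.73, and its difference of 0.07 (95% interval -0.13 to 0.26) did not pass. Csf2rb, the shared signalling chain, was lower by 0.34 on the log2 scale, Jak2, its kinase, by 0.65 and Stat5a by 0.45. Socs2, a feedback inhibitor, had the largest difference, of -0.82, with its 4 probes between -1.07 and -0.77. A dimmer probe of Stat5a was at -1.03. Cish, another feedback gene, did not pass, at 0.13. The calls of Csf2rb and Stat5a were lost when any 1 of the 4 arrays was left out, with an adjusted p up to 0.118. The call of Jak2 was lost without MDSC (conv.) array 2, DC array 1 or DC array 2, with an adjusted p up to 0.0616.

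Interferon-stimulated genes were lower in 13 of 28 tested and higher in 3, with a median of -0.37 (1 to 5 higher and 8 to 10 lower with 1 array left out, the fewest calls without MDSC (conv.) array 2). Mx1, an antiviral GTPase, had MDSC (conv.) signals of 3.02 and 2.86 and DC signals of 4.91 and 5.04, a difference of -2.03 (SE 0.10, adjusted p = 0.000542). Mx2 differed by -1.74, Ifi27l2a by -1.67, and the guanylate-binding proteins Gbp2 and Gbp3 by -1.18 and -1.28. Stat2 and Irf9, which carry the type I interferon signal to the nucleus, were lower by 0.68 and 0.51 on the log2 scale. Cmpk2, a mitochondrial nucleotide kinase, was higher, with MDSC (conv.) signals of 0.21 and 0.31 and DC signals of -1.25 and -1.47, a difference of 1.61 (SE 0.10, adjusted p = 0.000911). Oas2 (0.73) and Irf7 (0.51) were the other genes that were higher. The call of Irf9 was lost without DC array 2, with an adjusted p up to 0.0506. The call of Oas2 was lost without MDSC (conv.) array 2, with an adjusted p up to 0.0702. The call of Irf7 was lost without MDSC (conv.) array 1, MDSC (conv.) array 2 or DC array 2, with an adjusted p up to 0.117.

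Chemokine genes went both ways, with 9 of 19 tested higher and 7 lower. Cxcl2, Cxcl3 and Cxcl5, which draw neutrophils, were higher. Cxcl3 differed by 1.35 and Cxcl2 by 1.91 (SE 0.38, adjusted p = 0.0213), with DC arrays far apart, at -4.06 and -2.91, and Cxcl5, not well above background in DCs, was at least 2.98-fold higher. Ccl24, a ligand of the eosinophil receptor CCR3, had MDSC (conv.) signals of -1.06 and -1.02 and DC signals of -3.39 and -3.88, a difference of 2.59 (SE 0.17, adjusted p = 0.00102). Ccl3 and Ccl4 were higher by 1.23 and 0.80. Ccl17 and Ccl22, dendritic cell products that draw T cells through CCR4, were lower by 0.63 and 0.82 on the log2 scale. Ccl5 had MDSC (conv.) signals of 6.8 and 6.77 and DC signals of 7.96 and 8.08, a difference of -1.24, and Cxcl16, the ligand of CXCR6, differed by -1.38. With 1 array left out, 4 to 9 chemokine genes were higher and 3 or 4 lower. Of 13 chemokine receptors, 4 were higher and 3 lower (3 to 5 higher and 1 to 2 lower with 1 array left out, the fewest calls without DC array 1 or MDSC (conv.) array 2). Ccr6, which responds to CCL20, was lower by 1.44 on the log2 scale. The calls of Cxcl3 and Cxcl2 were lost without MDSC (conv.) array 1 or MDSC (conv.) array 2, with an adjusted p up to 0.109. The calls of Ccl4 and Ccl22 were lost without MDSC (conv.) array 2, DC array 1 or DC array 2, with an adjusted p up to 0.15. The call of Ccl17 was lost without MDSC (conv.) array 1, MDSC (conv.) array 2 or DC array 1, with an adjusted p up to 0.097.

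Cytokine genes were higher in 5 of 19 tested and lower in 2 (3 to 8 higher and 1 to 2 lower with 1 array left out, the fewest calls without MDSC (conv.) array 2). Hgf, hepatocyte growth factor, differed by 1.61, Il6 by 0.84 and Tnf by 0.60. Il18 was lower by 0.79. Il1b, interleukin 1 beta, did not pass at 1.77 (SE 0.52, adjusted p = 0.0612). Of 24 Toll-like receptor and inflammasome genes, 8 were higher and 3 lower (4 to 6 higher and 1 to 2 lower with 1 array left out, the fewest calls without MDSC (conv.) array 2). Tlr2, the receptor for bacterial lipoproteins, had MDSC (conv.) signals of 5.48 and 5.62 and DC signals of 4.15 and 4.42, a difference of 1.27 (SE 0.14, adjusted p = 0.004). Its partners Tlr1 and Tlr6 differed by 0.94 and 0.96, and Irak3, an inhibitor of the same pathway, by 1.44. Nod2, a cytosolic sensor of peptidoglycan, was lower by 0.81 on the log2 scale. Of 16 C-type lectin receptors 5 were higher, among them Clec4e, the receptor Mincle for mycobacterial glycolipid, at 1.94, and 1 was lower (3 to 6 higher and 1 lower with 1 array left out, the fewest calls without DC array 1). The call of Il18 was lost without MDSC (conv.) array 1 or MDSC (conv.) array 2, with an adjusted p up to 0.0604. The call of Tlr1 was lost without MDSC (conv.) array 2 or DC array 2, with an adjusted p up to 0.075.

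Genes of T cell suppression, the function by which MDSCs are defined, were higher in 5 of 20 tested and lower in 2, with a median of 0.05 (3 to 6 higher and 0 to 2 lower with 1 array left out, the fewest calls without MDSC (conv.) array 2), against 13.4% and 15.8% of all genes. Arg2, the mitochondrial arginase, had MDSC (conv.) signals of 1.48 and 1.85 and DC signals of -0.78 and -0.68, a difference of 2.39 (SE 0.16, adjusted p = 0.00113). Ptgs2, which makes prostaglandins, had MDSC (conv.) signals of -2.78 and -2.74 and DC signals of -4.73 and -4.48, a difference of 1.85 (SE 0.10, adjusted p = 0.000713). Nt5e, which makes adenosine and is known as CD73, differed by 1.72 and Vsir, the checkpoint molecule VISTA, by 0.89. The 2 lower genes were Stat3 (-0.42) and Il4ra (-0.40). The call of Il4ra was lost when any 1 of the 4 arrays was left out. That of Stat3 was lost without MDSC (conv.) array 1, MDSC (conv.) array 2 or DC array 2. Nos2, inducible nitric oxide synthase, had MDSC (conv.) signals of -2.24 and -3.25 and DC signals of -2.06 and -2.1 and did not pass, at -0.67 (adjusted p = 0.19). Tgfb1, Ido1 and Lgals9 did not pass either, with differences of 0.03, 0.10 and 0.05. The call of Nt5e was lost without MDSC (conv.) array 2, with an adjusted p up to 0.0526.

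Arg1, the cytosolic arginase, was not tested, because it was well above background on 1 DC array only. Its processed intensity was 3.72 and 3.73 on the MDSC (conv.) arrays, where it was not well above background, and 20.02 and 788.1 on the DC arrays, of which the second passed the call. Il10, an inhibitory cytokine, was likewise above background on 1 DC array alone, with intensities of 12.1 and 25.6 on the DC arrays and 5.83 and 7.36 on the MDSC (conv.) arrays. The DC arrays differed from each other in Arg1 far more than the MDSC (conv.) arrays did. Of 19822 genes above background on both DC arrays, 180 (0.908%) differed between them by over 2-fold, against 164 of 21295 (0.77%) between the MDSC (conv.) arrays.

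NADPH oxidase and glutathione genes were more often higher than lower. Of 8 tested genes for NADPH oxidase 2, which makes the reactive oxygen of phagocytes, 5 were higher and none lower. Cybb, its catalytic subunit, had MDSC (conv.) signals of 3.85 and 3.9 and DC signals of 2.44 and 2.39, a difference of 1.46 (SE 0.08, adjusted p = 0.000585). Ncf4, Ncf1 and Cyba, further subunits, differed by 0.73, 0.53 and 0.44, and 1 to 3 of the 8 were higher with 1 array left out. Of 33 glutathione and antioxidant genes, 18 were higher and 3 lower, with a median of 0.47, and 14 to 16 were higher with 1 array left out. Gsr, which regenerates glutathione, had MDSC (conv.) signals of 6.16 and 6.59 and DC signals of 4.16 and 4.5, a difference of 2.05 (SE 0.19, adjusted p = 0.00273). Mgst2, a microsomal glutathione transferase, had MDSC (conv.) signals of 5.16 and 5.25 and DC signals of 3.1 and 3.55, a difference of 1.89. Among the transferases that the study names, Gstt1 differed by 2.21, and Gstt4, not well above background in DCs, was at least 2.21-fold higher. Nqo1 (1.29), Gclm (1.0) and Slc7a11 (0.72), which reduce quinones, limit glutathione synthesis and import cystine, were also higher. Gstk1, a transferase of mitochondria and peroxisomes, and Cat, catalase, were lower by 0.73 and 0.34 on the log2 scale. The call of Ncf4 was lost without DC array 2, with an adjusted p up to 0.0542. The call of Ncf1 was lost without MDSC (conv.) array 2, DC array 1 or DC array 2, with an adjusted p up to 0.0691. The calls of Cyba and Cat were lost when any 1 of the 4 arrays was left out, with an adjusted p up to 0.128.

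Genes of glucose use, energy and lysosomes were counted against the 29.2% of all genes that were called. Of 22 genes of glycolysis and glucose uptake, 3 were higher and 2 lower, with a median of 0.00 (2 to 4 higher and 2 to 3 lower with 1 array left out, the fewest calls without MDSC (conv.) array 2). Slc2a3, the glucose transporter GLUT3, had MDSC (conv.) signals of 2.63 and 2.75 and DC signals of 0.42 and 0.00, a difference of 2.48 (SE 0.22, adjusted p = 0.00236). Hk3, a hexokinase of myeloid cells, differed by 1.66. Aldoc, an aldolase, had MDSC (conv.) signals of 3.98 and 3.96 and DC signals of 4.98 and 5.37, a difference of -1.2. Of 26 genes of oxidative phosphorylation, 4 were higher and none lower, with a median of 0.08 (1 to 2 higher and none lower with 1 array left out, the fewest calls without DC array 2 or MDSC (conv.) array 1 or MDSC (conv.) array 2). Of 38 lysosomal genes, 3 were higher and 5 lower, with a median of -0.05 (0 to 2 higher and 3 to 5 lower with 1 array left out, the fewest calls without DC array 2).

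Among lipid synthesis genes, more were lower than higher. Of 23 genes of cholesterol synthesis and uptake, 11 were lower and 1 higher, with a median of -0.29, and 4 to 6 were lower with 1 array left out. None of the 11 differed by 2-fold. Idi1, an enzyme of the pathway, was lower by 0.59 on the log2 scale. Only 1 string of letters was searched for as the sterol response element. That string was in 0 of the 16 promoters of these genes in the RefSeq table, against 0.3% of all genes. Because the string is so rare, 0 of 16 cannot tell whether these promoters hold the element in another form. Of 12 genes of fatty acid synthesis, 7 were lower and 1 higher, and 3 or 4 were lower with 1 array left out. Scd1, the desaturase that makes oleate, had MDSC (conv.) signals of -1.09 and -0.99 and DC signals of 0.72 and 1.08, a difference of -1.94 (SE 0.14, adjusted p = 0.00141), and Fads2, a desaturase of polyunsaturated fatty acids, differed by -1.31. Of 21 genes of lipid handling, 3 were lower and 1 higher, against 15.8% and 13.4% of all genes. Those 3 were Pltp, Abca1 and Abcg1 (-0.65), targets of the oxysterol receptors LXR. Abca1, which exports cholesterol, had MDSC (conv.) signals of -0.68 and -0.69 and DC signals of 0.93 and 1.32, a difference of -1.81 (SE 0.14, adjusted p = 0.00159), and Pltp, phospholipid transfer protein, differed by -2.89. Nr1h3, which encodes the receptor LXR alpha, did not pass, at 0.36. The call of Abcg1 was lost without MDSC (conv.) array 2, with an adjusted p up to 0.0558.

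No called gene of DNA replication or mitosis differed by 2-fold. Over all genes tested, 13.4% were called higher and 15.8% lower. Of 33 genes of DNA replication, 7 were higher and 1 lower, with a median of 0.23, and 0 to 3 were higher with 1 array left out. Of 32 mitotic genes, 3 were higher and none lower, with a median of 0.15, and 0 to 2 were higher with 1 array left out. Mki67, the proliferation marker, had MDSC (conv.) signals of 5.47 and 5.52 and DC signals of 5.17 and 4.87, a difference of 0.48 (SE 0.12, adjusted p = 0.037). TTTNNCGC, an E2F site, was in 13 of the 28 replication gene promoters in the table (46.4%), against 5.9% of all genes. Of 14 inhibitors of the cell cycle, 6 were lower and 1 higher, with a median of -0.38, and 3 or 4 were lower with 1 array left out. Cdkn2a, which encodes p16 and p19, had MDSC (conv.) signals of -2.45 and -3.05 and DC signals of -0.74 and -1.08, a difference of -1.84 (SE 0.23, adjusted p = 0.00623). Its neighbour Cdkn2b differed by -1.06 and Cdkn2c by -0.84. Rb1, the retinoblastoma protein that these inhibitors act through, had MDSC (conv.) signals of 2.76 and 2.88 and DC signals of 2.68 and 2.83, and its difference of 0.06 (95% interval -0.19 to 0.32) did not pass and changed sign under other settings. The call of Mki67 was lost without MDSC (conv.) array 1, MDSC (conv.) array 2 or DC array 2, with an adjusted p up to 0.146.

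Genes of other bone marrow lineages were measured as well. Of 17 megakaryocyte and platelet genes, 14 were higher and none lower, with a median of 2.28, and 12 to 14 were higher with 1 array left out. Gp1ba, part of the platelet receptor for von Willebrand factor, had MDSC (conv.) signals of -0.21 and -0.01 and DC signals of -5.02 and -3.89, a difference of 4.34 (SE 0.37, adjusted p = 0.00204), with 1 DC array well above background. Itga2b, the integrin chain CD41, had MDSC (conv.) signals of -1.31 and -1.04 and DC signals of -3.2 and -3.48, a difference of 2.16. Gp5 and Gp6 were not well above background in DCs, with bounds of at least 8.76-fold and 8.47-fold. Of 13 basophil and mast cell genes, 10 were higher and none lower, with a median of 1.30 (7 to 12 higher and none lower with 1 array left out, the fewest calls without MDSC (conv.) array 2). Prss34, a protease of basophils, had MDSC (conv.) signals of 4.62 and 4.63 and DC signals of 1.6 and 1.11, a difference of 3.27 (SE 0.18, adjusted p = 0.000666), and Fcer1a, a chain of the IgE receptor, differed by 2.28. Of 10 eosinophil genes, 4 were higher and 2 lower (1 to 5 higher and 2 to 3 lower with 1 array left out, the fewest calls without MDSC (conv.) array 1). Epx, eosinophil peroxidase, had MDSC (conv.) signals of 4.3 and 4.43 and DC signals of 2.77 and 1.2, a difference of 2.38 (SE 0.52, adjusted p = 0.0283). Alox15, a lipoxygenase of eosinophils and macrophages, was lower, with MDSC (conv.) signals of -3.22 and -3.27 and DC signals of -0.62 and -1.13, a difference of -2.37 (SE 0.18, adjusted p = 0.00151). The call of Epx was lost without MDSC (conv.) array 1 or MDSC (conv.) array 2, with an adjusted p up to 0.123.

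Of 10 B cell genes, 6 were higher and none lower, with a median of 1.79 (4 to 6 higher and 0 to 1 lower with 1 array left out, the fewest calls without MDSC (conv.) array 2). Cd79b, part of the B cell receptor, had MDSC (conv.) signals of 1.44 and 1.37 and DC signals of -1.97 and -2.29, a difference of 3.54 (SE 0.16, adjusted p = 0.00043). Pax5, the factor that fixes B cell fate, did not pass, at -0.09. Of 14 T and NK cell genes, 7 were higher and 5 lower, with a median of 0.64 (4 to 5 higher and 2 to 3 lower with 1 array left out, the fewest calls without MDSC (conv.) array 1). Thy1, a surface glycoprotein of T cells that other marrow cells also carry, had MDSC (conv.) signals of 4.84 and 4.65 and DC signals of 0.54 and 0.25, a difference of 4.35 (SE 0.13, adjusted p = 0.000208). Nkg7, a granule membrane protein of killer cells, had MDSC (conv.) signals of 2.47 and 2.14 and DC signals of -1.49 and -1.35, a difference of 3.73. Chains of the T cell receptor complex disagreed, with Cd3d higher by 1.67 and Cd3g lower by 1.32 on the log2 scale. Il7r, the interleukin 7 receptor, had MDSC (conv.) signals of 3.29 and 3.28 and DC signals of 4.47 and 4.84, a difference of -1.37 (SE 0.14, adjusted p = 0.00314). Of 10 stromal and endothelial genes, 2 were higher and none lower. Col1a1, a chain of collagen I, was not well above background in DCs and was at least 8.30-fold higher, while Col1a2, the other chain, did not pass, at -0.52. Of 9 erythroid genes, 3 were higher, and Hemgn, a nuclear protein of blood progenitors, was lower by 0.46 on the log2 scale, but its difference was 0.61 with the mean of its probes. The part that these lineages had in the differences of other genes was not tested. The call of Cd3g was lost without MDSC (conv.) array 1, MDSC (conv.) array 2 or DC array 1, with an adjusted p up to 0.116. The call of Hemgn was lost without MDSC (conv.) array 1, MDSC (conv.) array 2 or DC array 2, with an adjusted p up to 0.116.

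**Figure D4:**
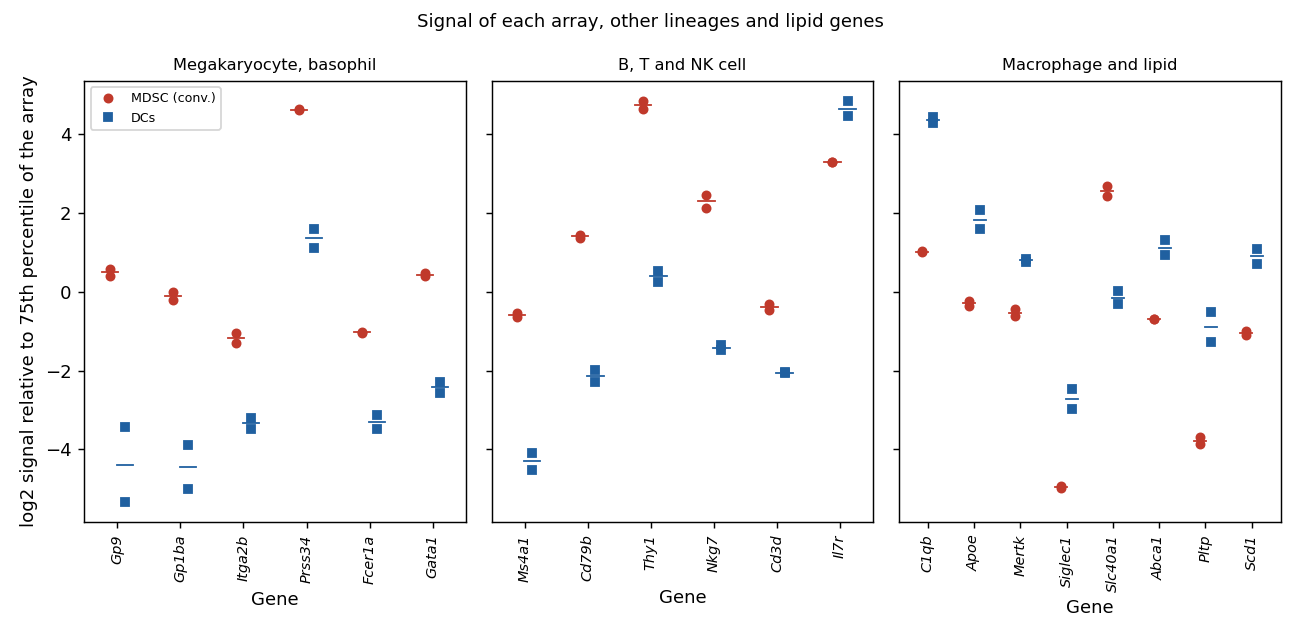
Signal of each array (log2 relative to the 75th percentile of the array) for genes of other lineages and of macrophages and lipid handling, with circles for the 2 MDSC (conv.) arrays, squares for the 2 DC arrays and short lines for group means. Megakaryocyte, basophil and B cell genes lie higher in MDSC (conv.), Il7r, C1qb, Apoe, Mertk, Siglec1, Abca1, Pltp and Scd1 lie higher in DCs, and Slc40a1 lies higher in MDSC (conv.).

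Some genes outside these lists are given here because they stand high by difference or by bound. Klk1, of the plasmacytoid dendritic cell list, is given again beside its relatives. Scrg1 was at least 56.3-fold higher, and Rgs4, Kcnj5 and Slc27a6 at least 6.0-fold, 6.71-fold and 8.13-fold, none of them well above background in DCs. The MDSC (conv.) arrays were far apart for Rgs4, at -3.09 and -1.36, and its bound rests on their mean. Scrg1 is named for its response to scrapie, Rgs4 restrains G protein signals, Kcnj5 is a potassium channel and Slc27a6 takes up fatty acids. Ankrd22 had MDSC (conv.) signals of 1.44 and 1.65 and DC signals of -3.24 and -3.06, a difference of 4.7 (SE 0.11, adjusted p = 0.000204). Fhl1, a LIM domain protein, and Gucy1b1, a subunit of the nitric oxide receptor guanylate cyclase, were not well above background in DCs and were at least 11.8-fold and 7.29-fold higher. Rapgef3, an exchange factor activated by cyclic AMP, was at least 10.3-fold higher. In the other direction, Fndc5, the precursor of irisin, had MDSC (conv.) signals of -0.96 and -1.1 and DC signals of 3.58 and 3.52, a difference of -4.58 (SE 0.09, adjusted p = 0.000204). Hrh1, the histamine H1 receptor, had MDSC (conv.) signals of -4.01 and -3.61 and DC signals of 0.62 and 0.58, a difference of -4.41 (SE 0.17, adjusted p = 0.000318). Rbp4, which carries retinol, differed by -4.07. The kallikreins Klk1b27, Klk1b9 and Klk1, related proteases of a gene cluster on chromosome 7 whose probes may share targets, were lower by 3.73, 3.49 and 2.99 on the log2 scale. Cnih3, Chrna10 and Ppp1r1a were not well above background in MDSC (conv.) and were at least 7.05-fold, 6.87-fold and 7.98-fold lower there than in DCs.

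In all, 996 genes (4.56%) were well above background on both MDSC (conv.) arrays and on no DC array, and 74 genes (0.339%) the other way round. With signal above the 95th percentile of the negative control probes as the call, these counts were 85 and 9. Of the 301 genes named or ranked by the rule, 296 were called, and 194 of these kept their call whichever of the 4 arrays was left out. Among the 2314 called genes with several tested probes, 288 (12.4%) had probes of opposite sign.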

How the data were processed

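Total RNA of 6 samples was labelled with Cy3 and hybridised to 1-colour Agilent mouse arrays, 2 for each group. The authors deposited processed spot intensity from Agilent Feature Extraction (10.7.3.1 per the file headers, 10.5.1.1 per the submitters' notes), which had subtracted the background and removed spatial trends. All arrays lay on 1 slide. Processed intensity was averaged over the spots of a probe, divided by the 75th percentile of the array (560.2 to 633.3 intensity units over the 6 arrays) and put on the log2 scale from the deposited values. Control spots and 103 to 146 outlier-marked spots per array were left out. A probe was kept where 1 group or more had it well above background on both its arrays (33482 of 56605), and each gene was read from its brightest probe. Symbols were updated through RefSeq, and probe coordinates are in mm9.

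The 6 arrays were fitted by group in limma 3.58.1 (R 4.3.3), with Benjamini-Hochberg adjustment over 21860 genes and 0.05 as the threshold. The fit was tested on simulated data. Where a group had no array well above background, the difference is given as "at least N-fold", the mean of the bright group against, per array, the higher of the dim probe and the lowest signal among probes well above background. Groups were taken from the sample titles. Alternatives were normexp background correction, quantile normalization, other filters, other probe summaries, other variance models, a replicate block, a Student test on the same values, and leaving out each array.

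The comparison and the gene lists were chosen with earlier results of these data known. The rule for named genes took the 20 that differed most in each direction, the 10 of largest bound in each direction, up to 6 called members of each list each way, other list members given beside their counts, and genes named by the study. The text gives a selection of these. The number of arrays limits the precision. Values of some list members are not reported here, though the counts of their lists include them.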

Additional observations from a re-analysis of the deposited data

How the results depend on the processing

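Normexp background correction gave 3288 higher and 4620 lower genes, but those changed at least 2-fold fell to 627 and 489. Limiting the test to probes above background on all 4 arrays left 726 genes at least 2-fold higher and 734 lower. At a 4-fold threshold, 495 were higher and 160 lower. Without a filter on dim probes 37325 genes were tested, 8700 were lower and the median over all genes was -0.19. Of the calls, 25.1% were higher, against 45.8% in the reported fit, and the cause was not tested. That setting includes genes not well above background in either group. Among these, Tpsab1 had -7.72 and -7.71 on the MDSC (conv.) arrays and -7.09 and -7.11 on the DC arrays. Timd4 had -7.64 and -7.64 against -7.09 and -7.13. Some ran the other way, such as Gsta4, with -6.02 and -6.03 against -6.23 and -7.03. Testing each probe on its own gave 4480 higher. A Student test on the same values, adjusted, called 4 genes higher and 3 lower, of which 4 and 2 were at least 2-fold. Unadjusted, it called 3127 and 3947. For the arrays the study's methods state a fold change between samples and gene set enrichment analysis, and no such test of single genes. With 1 compared array left out, 1371 to 1859 genes were higher and 1420 to 1976 lower, in a fit where the lone array is assumed to vary like the other groups, and 2459 and 3006 with 1 array of 6G- BM-MDSC left out. With the 95th percentile of negative controls as the call, 85 genes were above background in MDSC (conv.) only and 9 in DCs only.

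Deviations from the group means correlated at 0.114, 0.125 and 0.042 between groups for samples of the same number. With 2 arrays per group, these values cannot settle whether samples of the same number belong together. With the replicate block, 2784 genes were higher and 3177 lower. Of the 296 named genes that were called, 194 kept the call without each compared array. The sign changed for Prima1 without the filter (0.064, adjusted p = 0.919), Hemgn with the mean of its probes (0.614, adjusted p = 0.0782) and Rb1 with normexp (-0.064, adjusted p = 0.519). With 1 array left out, Rb1 ranged from -0.016 to 0.142 and Gapdh from -0.044 to 0.146, both lowest without DC array 1 (adjusted p = 0.938 and 0.777). Signal near background limits the dim genes, for which bounds are given.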

Other observations

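A few genes were far apart between the 2 DC arrays and passed no test between the groups. Mgarp, a mitochondrial protein, had a signal of -4.35 and -0.29 on the DC arrays and -5.85 and -5.17 on the MDSC (conv.) arrays. Ak4, a mitochondrial adenylate kinase, had -0.50 and 1.78 on the DC arrays, and Egln3, an oxygen-dependent prolyl hydroxylase, had -0.38 and 1.74, against 1.31 and 1.63 for Egln3 on the MDSC (conv.) arrays. Syt10, a synaptotagmin, ran the other way, with 1.58 and -4.17. These genes were picked after their values were seen, and no cause was tested.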
